A study of Mus musculus with 18 samples.

Results

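The prolactin-like (Prl), pregnancy-specific glycoprotein (Psg) and carcinoembryonic antigen-related cell adhesion molecule (Ceacam) genes of the mouse were examined for open chromatin in embryonic stem cells. Members were chosen by name alone: protein-coding genes whose symbol is Prl followed by a digit from 2 to 8, a letter and a number, or Psg or Ceacam followed by a number. The rule took 53 of 21774 protein-coding genes, namely 25 Prl genes on chromosome 13 and 13 Psg and 15 Ceacam genes on chromosome 7. Prolactin itself (Prl) was not a member.

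Open chromatin was mapped by ATAC-seq, in which a transposase cuts and tags accessible DNA. The labels name 1 mouse embryonic stem cell line, dTKO, with floxed Suv39h1, deleted Suv39h2 and floxed Setdb1, all of which encode histone H3 lysine 9 methyltransferases. Every group carried this genotype, and every label, including that of 0 h, lists 100 µg/ml auxin plus 0.5 µM dTAG13, agents that trigger the breakdown of suitably tagged proteins. Which protein carries a tag is not stated in the labels, and loss of the enzymes was not checked. Cells were taken at 0, 3, 6, 12, 24 and 48 h with 3 repeats each, which gave 18 libraries, and the aim stated for the series is to find chromatin that opens once the methyltransferases are gone.

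The values analysed were the positions of 1 list of merged peaks, 165744 of them on assembled chromosomes, with a median width of 578 bp. Such a list has no value per library. A peak therefore means that DNA was called open in the merged set, a missing peak means that none was listed, and neither the time of opening nor a spread between repeats can be given. Depth is unknown. Intervals below are 95% Wilson intervals of a share of genes, which cover counting error only, and neighbouring members share flanks and peaks, so that they are not independent. Of the stem cell markers, 8 of 8 had a peak within 500 bp of a gene end, as had 7 of 8 trophoblast, 3 of 6 fibroblast and 2 of 4 primitive endoderm markers. Of all protein-coding genes 71.4% had such a peak, a share inside the interval of each of these marker lists. A peak at a gene is also not expression, so these counts do not tell cell types apart.

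Most rodent Prl genes arose by repeated duplication and encode hormones that trophoblast or the decidua, the lining of the pregnant uterus, secretes during pregnancy. They include the placental lactogens, which act through the prolactin receptor in the mother. Psg genes encode secreted glycoproteins of the trophoblast, and Ceacam genes encode adhesion and signalling proteins of the immunoglobulin superfamily, some used widely in epithelia and blood cells and others largely in rodent trophoblast. Embryonic stem cells correspond to the epiblast, a lineage separate from trophoblast.

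Promoters with and without a peak are shown first, because peaks were found at some Ceacam starts and at no listed Prl or Psg start. Each sequence is from the RefSeq GRCm38.p6 promoter table and runs from 250 bases before the transcription start to 30 bases after it. In the first 4, capitals mark bases that lie inside a peak, and these are the 4 members with a peak over or nearest to a listed 5′ end. Ceacam1 encodes an adhesion receptor with inhibitory signalling motifs (chr7:25477596-25477875, minus strand), Ceacam2 its close relative (chr7:25539975-25540254, minus strand) and Ceacam10 a secreted member (chr7:24776917-24777196, plus strand). Ceacam19 (chr7:19887936-19888215) lies on the minus strand.
Ceacam1: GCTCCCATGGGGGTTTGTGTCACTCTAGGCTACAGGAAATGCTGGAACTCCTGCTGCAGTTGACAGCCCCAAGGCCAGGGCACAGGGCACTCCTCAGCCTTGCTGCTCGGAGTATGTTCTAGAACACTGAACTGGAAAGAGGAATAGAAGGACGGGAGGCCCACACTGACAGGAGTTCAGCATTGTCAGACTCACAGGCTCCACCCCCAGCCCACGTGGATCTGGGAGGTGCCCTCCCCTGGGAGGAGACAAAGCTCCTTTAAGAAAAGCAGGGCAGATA
Ceacam10: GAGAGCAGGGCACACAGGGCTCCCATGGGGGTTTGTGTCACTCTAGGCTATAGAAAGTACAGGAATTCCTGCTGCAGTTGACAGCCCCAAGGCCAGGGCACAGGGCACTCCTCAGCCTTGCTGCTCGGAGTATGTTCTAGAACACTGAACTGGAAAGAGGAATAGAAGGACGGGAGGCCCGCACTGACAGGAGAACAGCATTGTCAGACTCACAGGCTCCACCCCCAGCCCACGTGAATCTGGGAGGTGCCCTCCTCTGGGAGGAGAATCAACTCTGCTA
Ceacam19: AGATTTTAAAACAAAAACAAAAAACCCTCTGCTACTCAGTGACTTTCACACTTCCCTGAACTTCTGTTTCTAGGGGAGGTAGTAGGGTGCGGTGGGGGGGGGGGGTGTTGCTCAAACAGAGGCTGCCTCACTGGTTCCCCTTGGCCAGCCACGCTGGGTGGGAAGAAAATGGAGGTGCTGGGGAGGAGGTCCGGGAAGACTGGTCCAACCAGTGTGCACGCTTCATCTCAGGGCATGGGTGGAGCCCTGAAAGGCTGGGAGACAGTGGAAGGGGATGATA
Ceacam2: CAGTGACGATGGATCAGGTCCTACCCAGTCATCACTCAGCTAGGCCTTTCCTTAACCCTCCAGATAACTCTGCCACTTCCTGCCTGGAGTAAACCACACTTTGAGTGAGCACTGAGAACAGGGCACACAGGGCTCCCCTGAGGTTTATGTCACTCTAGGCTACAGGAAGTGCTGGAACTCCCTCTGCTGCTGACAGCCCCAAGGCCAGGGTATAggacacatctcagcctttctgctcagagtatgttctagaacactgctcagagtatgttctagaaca
The peaks covered all 280 bases shown for Ceacam1, Ceacam10 and Ceacam19 and 214 of those for Ceacam2, in which the peak stopped 37 bp short of the gene. The printed windows held 3, 4, 4 and 1 CpG in that order.

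The next pair belongs to the Prl members with a listed start that lay farthest from any peak. Prl3b1 encodes placental lactogen II, the lactogen of the later placenta (chr13:27242180-27242459, plus strand), and Prl3a1 is its neighbour (chr13:27259239-27259518, plus strand). Capitals mark matches to a TATA word (TATAAA on either strand) and to the AP-1 word TGACTCA or its reverse complement TGAGTCA, which Fos and Jun proteins are known to bind.
Prl3b1: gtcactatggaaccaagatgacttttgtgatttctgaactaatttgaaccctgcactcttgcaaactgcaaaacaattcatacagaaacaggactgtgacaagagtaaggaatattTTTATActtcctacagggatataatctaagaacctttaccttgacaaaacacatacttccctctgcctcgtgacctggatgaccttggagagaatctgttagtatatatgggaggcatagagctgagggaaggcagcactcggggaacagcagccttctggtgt
Prl3a1: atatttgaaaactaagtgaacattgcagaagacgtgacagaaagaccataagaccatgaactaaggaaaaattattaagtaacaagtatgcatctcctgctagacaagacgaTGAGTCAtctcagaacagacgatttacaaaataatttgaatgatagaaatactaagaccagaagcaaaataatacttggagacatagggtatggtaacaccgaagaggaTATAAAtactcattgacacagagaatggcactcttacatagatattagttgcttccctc
No base of either window lay in a peak. Prl3a1 held a TATA word beginning 29 bases before its start and an AP-1 word beginning 138 bases before it. In Prl3b1 the only match was a TATA word on the opposite strand, 134 bases before the start.

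Over whole genes, with Ceacam genes of all positions pooled, the families stood in the order Prl, Psg, Ceacam. At either end, within 500 bp, a peak was present in 0 of 25 Prl genes (0%, interval 0 to 13.3%), 3 of 13 Psg genes (23.1%, 8.18 to 50.3%) and 6 of 15 Ceacam genes (40%, 19.8 to 64.3%), whereas 71.4% of all protein-coding genes had one. All 3 shares lay below the genome-wide share, while the intervals of Psg and Ceacam overlapped each other widely. On chromosome 7, which holds all Psg and Ceacam genes, 59.6% of protein-coding genes had a peak at an end, a share inside the Ceacam interval and above the Psg interval. Both ends had a peak in 4 Ceacam genes and in no Psg or Prl gene, against 18.2% of all protein-coding genes. In the gene body a peak was found in 1 of 25 Prl genes (4%, 0.710 to 19.5%), 7 of 13 Psg genes (53.8%, 29.1 to 76.8%) and 9 of 15 Ceacam genes (60%, 35.7 to 80.2%), against 81.6% of all genes. The share on chromosome 7 was 69.5%, which lay inside the Psg and Ceacam intervals. Prl genes are short, with a median length of 7502 bp, so the 5354 protein-coding genes inside the Prl length range (5800 to 17172 bp) were taken as a further reference. Of those, 74.7% had a peak at an end and 85.2% in the body.

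**Figure D1:**
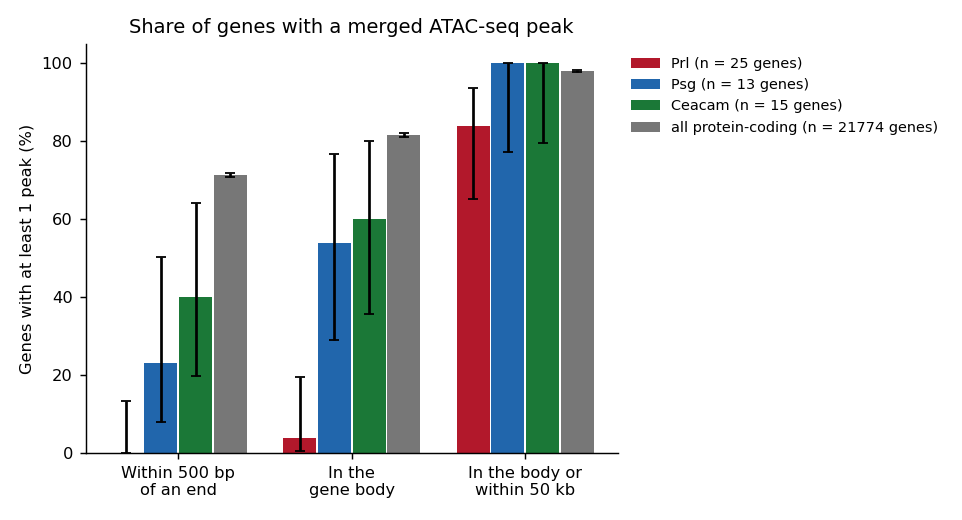
Percent of genes with at least 1 merged ATAC-seq peak (vertical axis) within 500 bp of an end, in the gene body, and in the body or within 50 kb, for the Prl (red), Psg (blue) and Ceacam (green) genes and all protein-coding genes (grey). Bars are shares and whiskers 95% Wilson intervals. Prl genes stand at 0%, 4% and 84%, below the other families in every set of bars.

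Counted over a wider range, Prl genes again had the lowest share and the lowest median count, though the intervals of the 3 shares overlapped. The Psg counts lay inside the range of the Ceacam counts. At least 1 peak in the body or within 50 kb was listed for 21 of 25 Prl genes (84%, 65.3 to 93.6%). The same held for every Psg gene (77.2 to 100%) and every Ceacam gene (79.6 to 100%), against 98.1% of all protein-coding genes. The median number of peaks in that range was 2 for Prl (0 to 8), 8 for Psg (5 to 13) and 15 for Ceacam (2 to 26), beside 14 for all genes. The order of Ceacam and all genes depended on the distance: at 25 kb the medians were 7 and 9, and at 100 kb both were 25. The nearest peak lay a median of 18.2 kb from a Prl gene end, 2.83 kb from a Psg end and 1.72 kb from a Ceacam end. Over all protein-coding genes the median was 0, since most had a peak over an end.

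**Figure D2:**
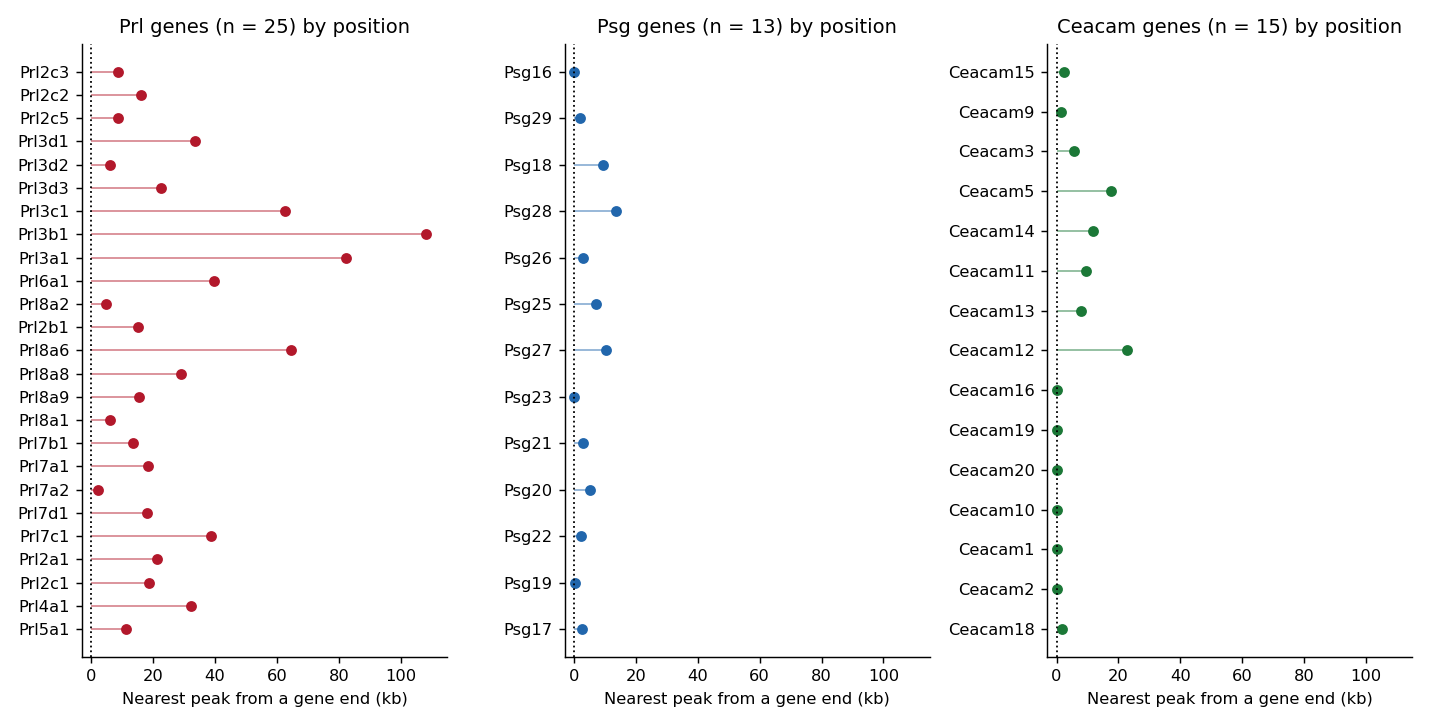
Distance in kb from the nearer annotated gene end to the nearest merged peak for each of the 25 Prl, 13 Psg and 15 Ceacam genes, in chromosomal order from top to bottom. The dotted line is 0; the farthest Prl gene, Prl3b1, stands at 108.259 kb, while no Psg gene exceeds 13.6 kb and no Ceacam gene 22.7 kb.

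No member lay between 487 and 1498 bp from a peak, and the cut at 500 bp fell at the lower edge of that gap. Just inside the cut were Ceacam2, 37 bp from a peak, and Psg19, 487 bp from one. Just outside were Ceacam9, at 1498 bp, and Ceacam18, at 1722 bp. With a window of 250 bp the Psg share with an end peak was 15.4%, against 23.1% at 500 bp. Over all protein-coding genes these shares were 68.8% and 71.4%.

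Among the placental lactogens the nearest peak was far off. Prl3d1, Prl3d2 and Prl3d3, which encode placental lactogen I of the early trophoblast giant cells, lay 33.4, 6.08 and 22.6 kb from a peak. It was the same 540 bp peak for all of them, and also for Prl3c1 and Prl3b1. Prl3b1, the placental lactogen II gene, was the gene farthest from a peak among the 829 protein-coding genes of chromosome 13, at 108.259 kb, and only 207 protein-coding genes of the genome (0.951%) lay as far or farther. Prl3a1 at 82.3 kb, Prl8a6 at 64.6 kb and Prl3c1 at 62.5 kb followed it. These 4 Prl genes were the only protein-coding genes of chromosome 13 without a peak in the body or within 50 kb, a state shared by 417 protein-coding genes over the genome.

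The proliferin genes and their relative had no peak at an end or in the body either. Prl2c2, Prl2c3 and Prl2c5 encode proliferins, growth-promoting and blood vessel-promoting hormones of the trophoblast, and form a cluster of their own (chr13:12790816-13191930). They lay 16035, 8604 and 8627 bp from a peak. Prl7d1, which encodes proliferin-related protein, a hormone that restrains blood vessel growth, lay 17.9 kb away in the large cluster. Prl2c3 had 8 peaks within 50 kb, the most of any Prl gene, and Prl2c2 and Prl2c5 had 3 each.

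The other Prl genes lay 2.08 to 39.7 kb from a peak. Prl8a2, the decidual prolactin-related protein gene, lay 4.72 kb from a peak, Prl8a1 5.88 kb and Prl5a1 11.2 kb. Prl7b1, Prl2b1, Prl8a9, Prl7a1, Prl2c1, Prl2a1, Prl8a8, Prl4a1, Prl7c1 and Prl6a1 lay between 13.4 and 39.7 kb away. Prl7a2 was the single Prl gene with a peak inside it, 336 bp wide and 2.08 kb from its lower-coordinate end, which is its 3′ side, and 7057 bp from the upper end. It had no peak in the 50 kb on either side. The Prl median of 18.2 kb was reached or passed by 5.82% of all protein-coding genes.

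The large Prl cluster, from Prl3d1 to Prl5a1 (chr13:27094189-28151595), held 22 members over 1057 kb and no other protein-coding gene. It contained 20 peaks, or 18.9 per Mb, against 61.6 per Mb over chromosome 13. Peaks covered 1.06% of its bases against 4.33% of the chromosome, and 7 of the 20 were wider than the median peak. Only 1 of the 20, the peak in Prl7a2, lay in any annotated gene. Of 2261 autosomal windows of the same length, 204 (9.02%) had no more peaks, so the cluster was in the sparse tail of the genome without being its extreme. From Prl3d1 to Prl2c1, with 20 members, the density was 10.5 per Mb (8 peaks in 764 kb), and from there to Prl5a1, with 2 members, it was 40.8 per Mb (12 peaks in 294 kb).

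Long stretches without any peak held whole groups of these genes. The longest, 225 kb (chr13:27134172-27358938), held Prl3d3, Prl3c1, Prl3b1, Prl3a1, Prl6a1 and Prl8a2. Among 160080 gaps between autosomal peaks, 249 (0.156%) were as long or longer, and the median gap was 6.31 kb. A further gap of 174 kb held Prl2b1, Prl8a6 and Prl8a8. The sparse state reached past the cluster on its lower side, where the 4 successive stretches of 250 kb had 20, 20, 24 and 40 peaks per Mb, going outward. On the upper side they had 32, 44, 120 and 60 per Mb. The first protein-coding gene below was prolactin, 29.0 kb away and 5.35 kb from its nearest peak, and the first above was Sox4, a transcription factor gene 797 kb away with a peak of 1876 bp at an end.

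**Figure D3:**
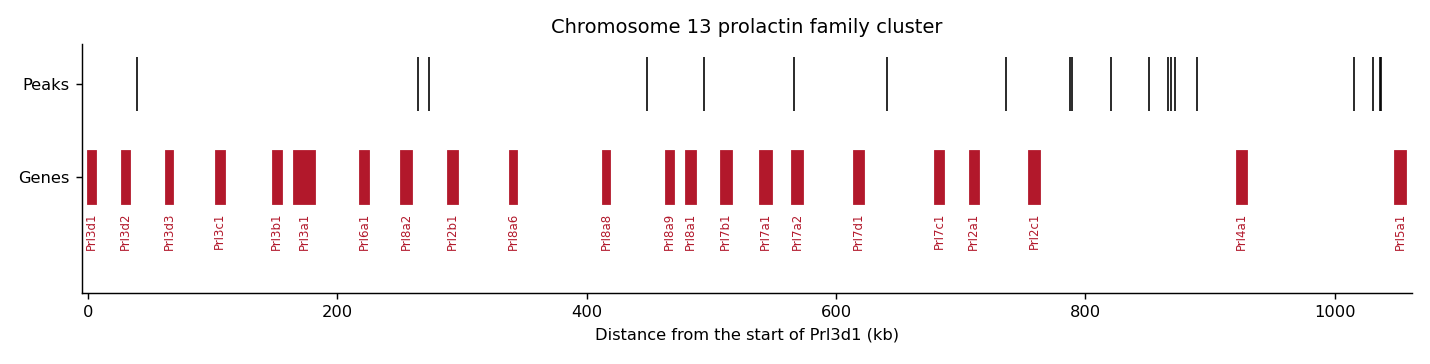
Merged peaks (upper ticks) and Prl genes (lower bars) along the large chromosome 13 cluster, with distance from the start of Prl3d1 in kb on the horizontal axis. The 20 peaks leave gaps of 225 kb and 174 kb that hold 6 and 3 Prl genes, and none touches a gene except the peak in Prl7a2.

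The smaller proliferin cluster was less sparse. It held 18 peaks in 401 kb, or 44.9 per Mb, and 44.1% of autosomal windows of its length had no more. This was still below the 61.6 per Mb of chromosome 13 and the median of 52.4 per Mb over those windows. Peaks covered 2.81% of its bases, against 4.33% of the chromosome. Its 3 genes nevertheless sat in gaps of 39.0, 43.1 and 45.9 kb between peaks, and none had a peak at an end or in the body. The degree of sparseness of the large cluster was thus not shared by both groups of Prl genes, while the lack of peaks at gene ends was.

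Psg genes stood above Prl genes in the shares with an end or body peak and in peaks within 50 kb, and their nearest peaks were closer. No gene of either family had a peak at both ends or at a listed start. The 3 with a peak at an end were Psg16, with a peak of 902 bp over its lower-coordinate end (chr7:17073710-17074611), Psg23, with a peak of 762 bp over its 3′ end (chr7:18606255-18607016), and Psg19, with a peak of 558 bp lying 487 bp beyond its upper end. None of these peaks was within 500 bp of the end of another gene. Strand is known here for 10 Psg genes, and none of those had a peak within 500 bp of a RefSeq start, against 70.9% of all protein-coding genes with a listed start. Distances from those starts ran from 2.10 kb in Psg29 to 20.9 kb in Psg28. The Psg23 peak lay 9485 bp from that gene's start, and the strands of Psg16 and Psg19 were not known here.

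Body peaks were present in Psg16, with 2 of 902 and 634 bp, Psg23, with 2 of 762 and 355 bp, Psg29, Psg21, Psg20, Psg22 and Psg17. The products of Psg17, Psg22 and Psg23 are secreted trophoblast glycoproteins, and that of Psg17 is known to bind the tetraspanin CD9. The widest body peak that lay wholly in a gene was that of Psg20, at 1298 bp, and the other single body peaks were 707 bp wide in Psg29, 603 bp in Psg21, 353 bp in Psg17 and 305 bp in Psg22. In Psg23 a peak of 355 bp was centred 3.18 kb from the lower end, and the Psg21 peak was centred 3.19 kb from its own lower end. Their promoters are 96.4% identical, and how reads that match both copies were placed was not tested. The 6 Psg genes without a body peak were Psg18, Psg28, Psg26, Psg25, Psg27 and Psg19, of which Psg28 lay farthest from a peak, at 13.6 kb, followed by Psg27 at 10.5 kb, Psg18 at 9.28 kb and Psg25 at 7.03 kb. The Psg genes nearest to a peak without one at an end were Psg29 at 2.10 kb, Psg22 at 2.26 kb, Psg17 at 2.67 kb and Psg26 at 2.83 kb.

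Psg genes and 8 Ceacam genes shared 1 cluster from Ceacam15 to Psg17 (chr7:16671331-18821591). Over its 2150 kb it held 170 peaks, or 79.1 per Mb, above the 68.1 per Mb of chromosome 7, but the peaks were spread unevenly. The stretch from Ap2s1, an adaptor protein gene, to Hif3a, a hypoxia-inducible factor gene, held 68 peaks in 324 kb (210 per Mb) and 15 non-member genes, each with a peak at an end. These included Slc1a5, an amino acid transporter gene, Strn4, Prkd2 and Dact3. Around the members, density was 110 per Mb from Ceacam15 to Ceacam9, where neither gene had a peak at an end, 35.1 from Psg16 to Ceacam14, 18.9 from Ceacam11 to Ceacam12 and 73.6 from Psg18 to Psg17. The compact Psg run therefore had peaks at about the chromosome's rate, while only 2 of its 11 genes had one at an end. The 3 other non-members of the cluster, Gm5155, Igfl3 and Mill1, lay 0.550, 0.704 and 0.722 kb from a peak. Of the first genes outside, Arhgap35 below and Mill2 above both had a peak over an end.

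**Figure D4:**
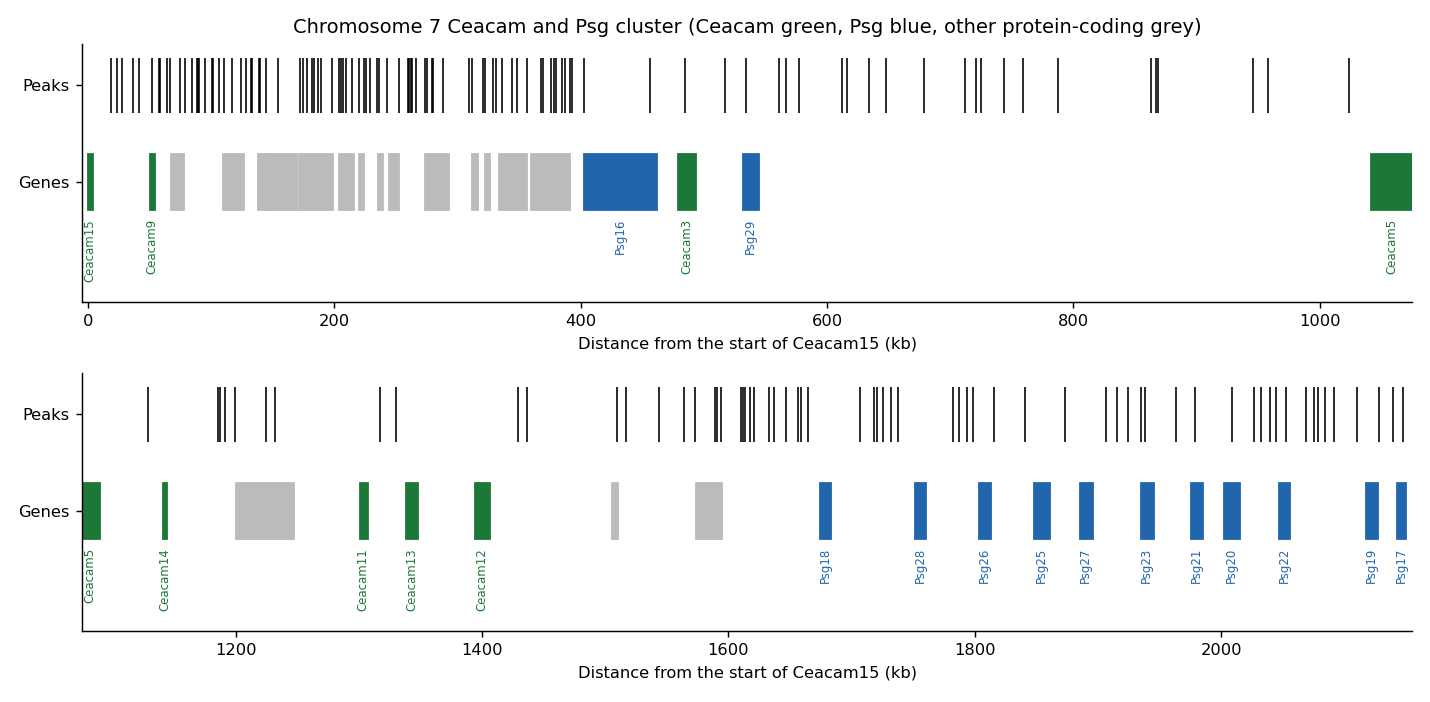
Merged peaks (ticks) and protein-coding genes (bars; Psg blue, Ceacam green, others grey) along the chromosome 7 cluster, drawn in 2 panels, with distance from the start of Ceacam15 in kb on the horizontal axis. Peaks crowd over the grey genes near the left edge of the upper panel (210 per Mb) and thin out around Ceacam11 to Ceacam12 (18.9 per Mb).

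Ceacam genes split by position. Of the 8 in the Psg cluster, 0 had a peak at an end (0 to 32.4%), 2 had a body peak and the median nearest distance was 8.71 kb. Of the 7 elsewhere on chromosome 7, 6 had a peak at an end (85.7%, 48.7 to 97.4%), all 7 had a body peak and the median distance was 0 kb. The 7 were also longer, with a median of 15946 bp against 7861 bp for the 8. Per 100 kb of body, the median number of peak midpoints was 16.3 for the 7 and 0 for the 8. The part of length in the body counts was not tested. The share of all protein-coding genes with an end peak, 71.4%, and that of chromosome 7, 59.6%, both lay inside the interval of the 7 and above that of the 8. The group in the cluster includes Ceacam9, Ceacam11, Ceacam12, Ceacam13 and Ceacam14, genes known from rodent trophoblast. Of the 13 Psg genes in the same cluster, 3 had a peak at an end and 7 a body peak. Their median nearest distance was 2.83 kb. Their median number of peaks within 50 kb was 8, against 3 for the 8 Ceacam genes there. Within this cluster the order of Psg and Ceacam was thus the reverse of that of the pooled families, with overlapping intervals for both shares.

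In the Psg cluster, Ceacam12 lay farthest from a peak, at 22.7 kb, followed by Ceacam5 at 17.7 kb, Ceacam14 at 11.9 kb and Ceacam11 at 9.38 kb. Ceacam13 lay 8.04 kb from a peak, Ceacam3 5.51 kb, Ceacam15 2.50 kb and Ceacam9 1498 bp. The last of these and Ceacam3 each held 1 body peak, of 380 and 414 bp. Ceacam5, Ceacam11, Ceacam12 and Ceacam13 each had 2 peaks within 50 kb, as few as the Prl median.

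Outside that cluster, both ends had a peak in Ceacam1, Ceacam2, Ceacam16 and Ceacam19. Ceacam16, which encodes a protein of the inner ear's tectorial membrane, held 5 body peaks and had 26 peaks within 50 kb, the highest count of any member. Its lower-end peak of 980 bp also lay at an end of Gm19345, a gene that overlaps it. Ceacam19 held 3 body peaks and had 24 peaks within 50 kb. Ceacam20, an intestinal brush border gene, had its end peak of 970 bp at the 3′ end, where it was shared with the neighbouring gene Nlrp9b, and its start was 4.05 kb from a peak. Ceacam18 was the exception among the 7: it had 4 body peaks of 218 to 834 bp and none within 500 bp of an end.

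At the 5′ end, 4 of 13 Ceacam genes with a listed start had a peak within 500 bp, those whose promoters are printed above. Ceacam1 had a peak of 681 bp over its start and one of 1231 bp over its 3′ end (chr7:25461105-25462335). Ceacam10 had 1 peak, of 1158 bp, which covered its start and reached 419 bp into the gene. Ceacam2 had peaks of 1394, 772 and 1356 bp in its body besides those at its ends. The density from Ceacam10 to Ceacam2 was 186 per Mb, and 21 of the 23 non-member genes in that span had a peak at an end. Between Ceacam16 and Ceacam20 it was 201 per Mb, with a peak at an end of all 3 non-members, Gm19345, Pvr and Igsf23. The first genes outside the smaller clusters were mostly open too. Bcl3, Nlrp9b, Cd177, Zfp819, Ctu1 and Ero1b had a peak at an end, while Erich4 lay 2.41 kb and Gm7040 6.45 kb from one.

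The promoter windows, 300 bases each (250 before and 50 after a start), were counted as well. A peak overlapped 0 of 24 Prl windows (21 genes), 0 of 11 Psg windows (10 genes) and 5 of 15 Ceacam windows (4 genes), against 67.9% of 21263 windows over all protein-coding genes. Member promoters are poor in CpG, with medians of 2.5, 2 and 2 and a highest value of 5, beside a median of 13 for all. Openness followed CpG over all windows: 7.86% were overlapped at 0 to 2 CpG, 28.6% at 3 to 5, 65.0% at 6 to 10 and 98.6% at 11 or more. Over windows with at most 5 CpG, the range of the members, 17% were overlapped. The low counts of Prl and Psg are thus to be read beside 17% as well as beside 67.9%, and the part of CpG content in them was not tested.

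**Figure D5:**
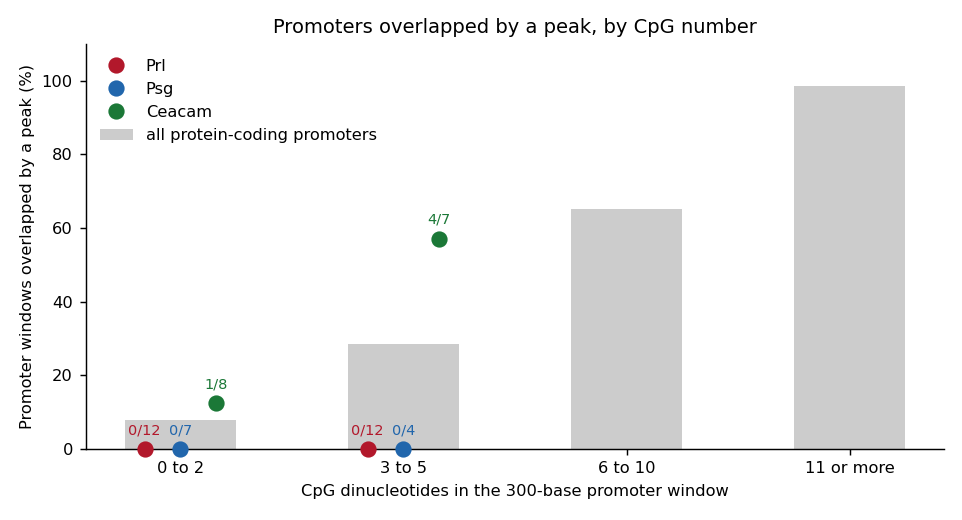
Percent of promoter windows overlapped by a merged peak (vertical axis) by number of CpG in the window, for all protein-coding genes and the 3 families. Over all genes the share climbs from 7.86% to 98.6%; every member window has at most 5 CpG, and the Prl and Psg windows stand at 0%.

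Within the class of 0 to 2 CpG, which holds 27 of the 50 member windows, 0 of 12 Prl windows, 0 of 7 Psg windows and 1 of 8 Ceacam windows were overlapped, close to the 7.86% of all. Within the class of 3 to 5 CpG, 0 of 12 Prl windows, 0 of 4 Psg windows and 4 of 7 Ceacam windows were overlapped, beside 28.6% of all. How reads were placed on near-identical copies was not tested, so the identity of the promoters is given beside these counts. The closest pairs were Prl3d2 and Prl3d3 at 97.0% identity, Psg18 and Psg28 at 96.7%, Psg23 and Psg21 at 96.4% and Prl2c3 and Prl2c5 at 95.3%. Of the windows whose closest relative among the members was below 80% identity, 0 of 15 Prl, 0 of 3 Psg and 2 of 12 Ceacam windows were overlapped. This measure can miss a copy of part of a window. Ceacam2 stood at 49.5%, though its best local alignment with Ceacam1 was 87.6% identical over 129 columns. Members without a listed promoter and non-members were not compared, so the split cannot settle how reads were placed. The 3 Ceacam windows with a relative at 80% or above, those of Ceacam1 and Ceacam10, were all overlapped.

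Ceacam1 and Ceacam10 share an exact run of 114 bases in their promoters, and their best local alignment was 93.2% identical over 280 columns. Ceacam2 shares with both the 20-base run tgacagccccaaggccaggg, which no other protein-coding gene in the promoter table holds. It begins 172 bases before the start in Ceacam10 and 60 bases before it in Ceacam2. All 3 genes had a peak within 500 bp of the start, over it in Ceacam1 and Ceacam10 and 37 bp short of it in Ceacam2. This is a description of 3 related promoters.

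Psg promoters share a GATA word, the letters TGATAA or AGATAA searched on both strands, which GATA factors such as the trophoblast regulators Gata2 and Gata3 are known to bind. It was present in 10 of 11 Psg windows, 15 of 24 Prl windows and 8 of 15 Ceacam windows. With only the first listed window of each gene counted, 9 of 10 Psg, 12 of 21 Prl and 7 of 13 Ceacam genes held it. Prl3c1 is not among those 12, since it held the word only in its other window. Over all windows 15.9% held it, and 30.1% of those with at most 5 CpG. The member windows are partly copies of each other. Where the closest relative among the members was below 80% identity, 2 of 3 Psg, 8 of 15 Prl (53.3%) and 8 of 12 Ceacam windows held the word. The 9 Psg genes hold it in like surroundings, shown here as 30 bases with the word in capitals as TTATCA, the reverse complement of TGATAA.
Psg17: gcatgtcgatgcTTATCAgccttgttgctc
Psg18: gcatgtcgatgcTTATCAgccttgttgctc
Psg23: tcatgtcgatgcTTATCAgccctgttgcac
Psg29: gcatggggatgcTTATCAgccttgtttcct
The word begins 82, 75, 71 and 71 bases before the start in these, and 68 to 107 bases before it over all 9. None of these promoters was in a peak. A match is a description of letters, and says nothing about binding.

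The AP-1 and TATA words were counted in the same way. An AP-1 word was found in 6 of 24 Prl windows (25%), 3 of 11 Psg windows (27.3%) and 0 of 15 Ceacam windows. It was held by 4.66% of all windows and 7.58% of those with at most 5 CpG. These windows are partly copies of each other. The Psg windows with the word belong to 2 genes, Psg18 and Psg28, and Prl3d1, Prl3d2 and Prl3d3 hold it in the same 30 bases. Of windows whose closest relative among the members was below 80% identity, 2 of 15 Prl (13.3%) and 0 of 3 Psg windows held it. A TATA word was found in 5 of 24 Prl (20.8%), 0 of 11 Psg and 5 of 15 Ceacam windows (33.3%), against 12.6% of all and 24.9% of those with at most 5 CpG. A window was counted once for each word, and no word contains another.

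Genes known to act with these families are given beside the 71.4% of all protein-coding genes that had a peak at an end. Of the prolactin signalling genes, 12 of 14 had such a peak (85.7%, 60.1 to 96.0%), among them growth hormone (Gh), the receptor genes Prlr and Ghr and the kinase gene Jak1. Prolactin, at 5.35 kb, and Stat5b, at 0.715 kb, were without one. Of the partners of PSG and CEACAM proteins, 6 of 9 had one (66.7%, 35.4 to 87.9%), including Cd9 and Tgfb1, and Cd36, Itga2b and Havcr2 did not. Of the trophoblast transcription factor genes that regulate placental hormones, 11 of 12 had one (91.7%, 64.6 to 98.5%), with Gata2, Gata3, Tfap2c and Hand1 first in the list, and Hif1a at 1.39 kb was the exception. The intervals of all 3 lists held the share of all genes. The placental cathepsin and trophoblast-specific protein genes, another rodent placental cluster on chromosome 13, had values near those of the Prl genes: 1 of 10 had a peak at an end, Ctsr at 0.166 kb, and 0 of 10 had one in the body. Their median nearest distance was 15.4 kb and their median number of peaks within 50 kb was 2.5, beside 18.2 kb and 2 for Prl.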

How the data were processed

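The authors deposited 1 list of merged ATAC-seq peaks for the 18 libraries (6 times, 3 repeats). It gives positions only. The tools listed in the submitters' processing notes, without role or order, are MACS2 (2.2.7.1), Bowtie2 (2.4.2) and Trimmomatic (0.36), and the builds listed are GRCm38 and mm10. Peak threshold, merging and the treatment of duplicates, blacklisted regions, transposase offset and reads with several matches are not given in the sources used here, and each could change which peaks exist. With no count or height, the depth of a library is unknown, and the planned comparison of each time with 0 h was not run. Columns of values per sample left unused numbered 0.

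Of 166066 peaks, 322 on unplaced contigs were left out. Genes came from RefSeq GRCm38.p6, with strand and promoters for the 44 of 53 members found in its promoter table. Psg16, Psg19, Psg22, Ceacam14, Ceacam16, Prl2c1, Prl2c2, Prl7b1 and Prl8a2 have no entry there and are given without strand. A gene had a peak where at least 1 bp overlapped the window. Members within 1 Mb of each other formed a cluster, and densities count peak midpoints. Promoter identity was the share of identical columns in a pairwise alignment (Biopython 1.88). Members and lists were chosen with earlier results of these data known. CpG classes, promoter identity, motif words, the reference of like length and the density of shorter stretches were added after the peaks had been seen. No test between groups was made. Named genes were all members with an end peak, per family the 4 farthest and the 4 nearest without one and the 3 with most body peaks, those beside the threshold, up to 6 open non-members per cluster, the first outside neighbours, and up to 4 genes of each list with and without an end peak. Items withheld from the text are not reported here. The scripts were tested on simulated data over the 21774 genes, and all 200 planted distances, 200 calls and 1000 window counts were recovered. Computation used matplotlib 3.10.9, scipy 1.17.1, pandas 2.3.3 and numpy 2.4.6 under Python 3.11.15.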

Additional observations from a re-analysis of the deposited data

How the results depend on the processing

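Of 56 alternative values, 40 stayed within their interval or within 1.5 times the reported value and 16 moved. With windows of 250 or 2000 bp, or an overlap of at least 200 bp, the share of each family with an end peak stayed within its interval. These intervals are wide for so few genes, so that staying inside is a loose criterion. The Psg share was 15.4% at 250 bp and at an overlap of 200 bp, against 23.1% reported. The Ceacam share was 53.3% at 2000 bp, against 40%. Over all protein-coding genes the share was 68.8% at 250 bp, 69.4% at an overlap of 200 bp and 79.7% at 2000 bp. With only the 5′ end counted, the share with a peak was 0% for Psg and 9.09% for all members, beside 70.9% of all protein-coding genes. With only peaks wider than the median, the Prl share with a body peak was 0%, beside 77.3% of all protein-coding genes. The median number of peaks within 50 kb was then 0 for Prl and 6 for Ceacam, beside 8 for all genes. The median nearest distance was 101 kb for Prl, 6.105 kb for Psg and 17.7 kb for all members, beside 0 for all genes. Under the same setting the density was 6.62 per Mb in the large Prl cluster (chromosome 13: 30.5) and 44.6 per Mb from Ceacam15 to Psg17 (chromosome 7: 36.0). At 25 kb the median number of peaks was 1 for Prl, 4 for Psg and 7 for Ceacam, and at 100 kb 17 for Psg, 25 for Ceacam and 6 for all members, beside 9 and 25 for all protein-coding genes. The Prl share with an end peak was 0% in all 5 alternatives run for it. No paired analysis was possible because the peak list has no value per library, and for the same reason no repeat could be left out. Unknown depth and read placement limit every missing peak: a peak too weak to be called was not told apart from closed DNA.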
